A study of Mus musculus with 36 samples.

Results

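The SLC25 genes encode the carriers that move metabolites, nucleotides and cofactors across the inner mitochondrial membrane. They were represented by 46 of the 22180 genes measured in mouse liver. The 46 are all genes whose single annotated symbol is Slc25a followed by a number, each read by 1 probe set, and all 46 matched a RefSeq gene by Entrez identifier. A further probe set, shared by Slc25a35 and another gene, was not used. Slc25a52 is not analysed here.

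Liver RNA was hybridised to Affymetrix arrays in a study of lung adenocarcinoma and the daily cycle of the liver. WT mice were compared with TB mice, the tumour-bearing animals, whose genotype includes p53fl/fl. Such floxed alleles are removed by a Cre recombinase where it is active; how it was delivered, whether WT animals had floxed alleles or Cre, and the sex and age of the animals are not stated in the labels. All groups were C57BL/6 mice kept in 12 h of light and 12 h of dark, and livers were collected at intervals of 4 h, the first at ZT 0 and the last at ZT 20, where ZT is Zeitgeber time in h and ZT 0 is lights on. Each of the 12 groups of genotype and ZT held 3 arrays. Whether each replicate came from a mouse of its own is not in the labels. The p-values therefore rest on the spread among the arrays of a group, part of which may be technical. For the tests of rhythm, the spread also includes the distance of group means from the fitted curve.

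A typical carrier is a small bundle of membrane helices that exchanges one solute for another, such as ADP for ATP, malate for oxoglutarate or aspartate for glutamate. In hepatocytes these exchanges link the mitochondrial matrix to the urea cycle, gluconeogenesis, fatty acid oxidation, lipid synthesis and haem synthesis, processes that run with a daily rhythm of feeding and fasting. Levels are given as log2(intensity + 16), and since probe sets differ in brightness for the same amount of RNA, levels were compared between samples and not between genes. The tissue was analysed in bulk, so that fewer cells of a type and less RNA per cell cannot be told apart.

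The arrays gave 3 facts that touch the carriers. Mean log2 levels of 10 hepatocyte markers lay between 12.21 and 12.44 in all 36 arrays. In WT ZT 12 replicate 3 the 20 skeletal muscle markers had a mean log2 level of 12.42 and each was higher than in any other array, where that mean reached at most 6.73. The values that this array changes most are given with and without it. The arrays also split into a set of 24 and a set of 12 along the leading component (28.6% of the variance) of the deviations from group means over probe sets without a symbol. Each group had 1 array in the smaller set, and the labels do not say what the sets are.

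Of the 46 carriers, 16 had a mean intensity under 64. Slc25a41, an ATP-Mg/phosphate carrier, was under 16 in all 36 arrays, and Slc25a43, of unsettled substrate, was under 16 in 23 arrays. Differences on the log2(intensity + 16) scale understate the change of such dim probe sets.

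For time of day, a 24 h cosine was fitted to each gene in each genotype with limma, and a gene was called rhythmic at a Benjamini-Hochberg adjusted p under 0.05 over all 22180 genes. In WT liver 5 of 46 carriers (10.9%) were called, beside 6.45% of all genes, and in TB liver 3 of 46 (6.52%) were called, beside 4.95% of all genes. Slc25a47 and Slc25a22 were called in both genotypes, Slc25a11, Slc25a32 and Slc25a13 in WT, and Slc25a51 in TB. Without WT ZT 12 replicate 3 the count in WT was 6 (13%, beside 6.21% of all genes): the same 5 and Slc25a10 (amplitude 0.32, limma adjusted p = 0.0159). In that fit Slc25a47 had an amplitude of 0.86, Slc25a22 of 0.48 and Slc25a32 of 0.33 (limma adjusted p = 1.29e-04, 7.75e-04 and 0.0190). Without TB ZT 8 replicate 2 the count in TB was 5. The TB count over all genes in that fit is not given here. Over all fits with 1 array left out it ran from 759 to 1501. The 6 carriers called with all arrays peaked between the middle of the light phase and the start of the dark phase. How many of all called genes peaked there was not counted. The median fitted amplitude of the 46, the height of the cosine above its mean, was 0.11 log2 in each genotype, against medians over all genes of 0.086 in WT and 0.089 in TB.

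**Figure D1:**
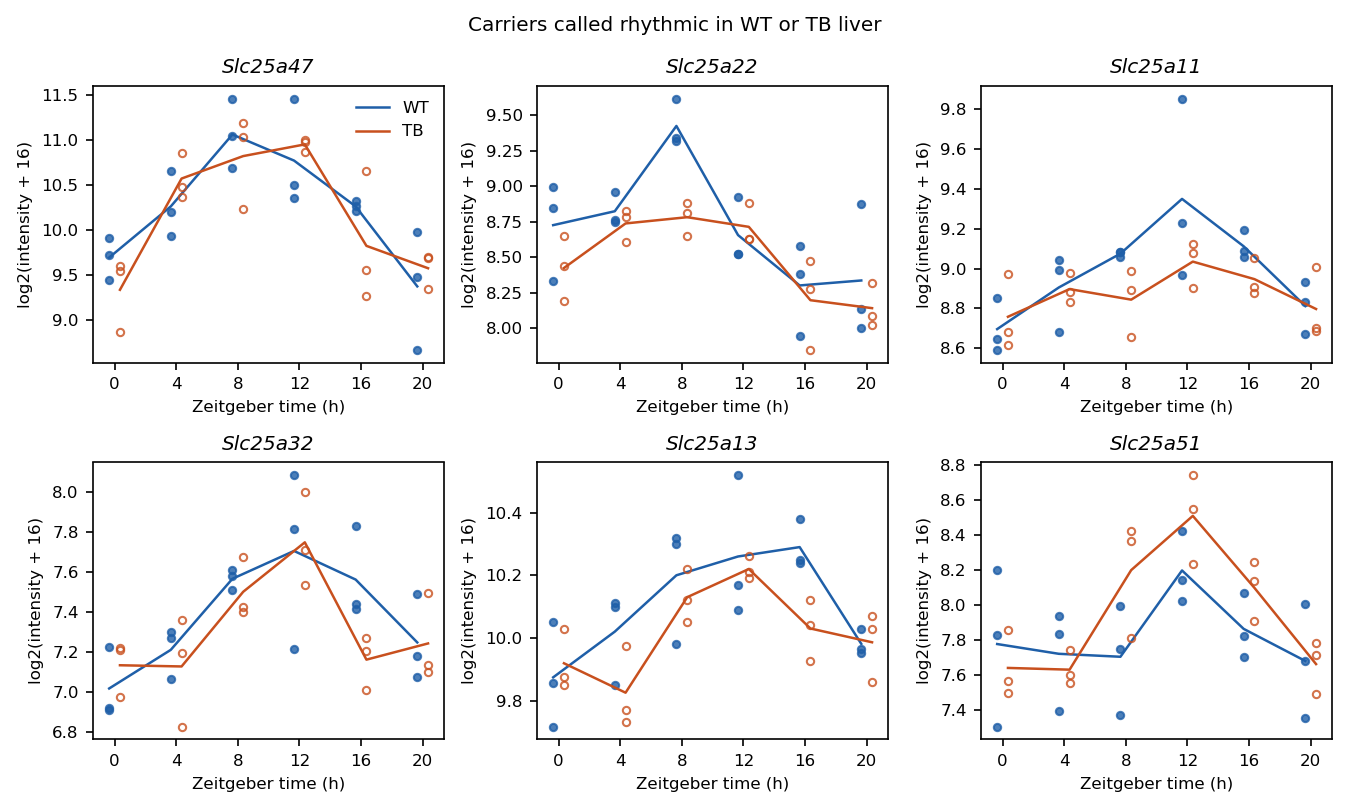
Log2(intensity + 16) of the 6 carriers called rhythmic in WT or TB liver against Zeitgeber time in h. Points are single arrays (3 per group, WT filled, TB open) and lines join group means; Slc25a47 has its highest WT mean at ZT 8 (11.06) and its highest TB mean at ZT 12 (10.95).

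Sequences before the annotated starts of Slc25a47 and Slc25a22, called in both genotypes, and of Slc25a13, picked for its E-box, are shown beside the values. They are RefSeq sequence (GRCm38.p6), 5′ to 3′ on the strand of the gene and ending at the base before the annotated start for Slc25a47 and Slc25a22. Slc25a47 is shown at chr12:108850879-108851128 (plus strand, inside the longest RefSeq span of the gene, chr12:108849833-108856815) and Slc25a22 at chr7:141437875-141438124 (minus strand, upstream of its farthest of 3 annotated starts). For Slc25a13 only 30 bases around an E-box are shown, at chr6:6217281-6217310 (minus strand, across the end of the RefSeq span at 6217304). The E-box itself lies inside this span. Capitals mark a match to the nuclear receptor hexamer AGGTCA, read on the opposite strand, in Slc25a47 and to the E-box CACGTG in Slc25a13.
Slc25a47 upstream: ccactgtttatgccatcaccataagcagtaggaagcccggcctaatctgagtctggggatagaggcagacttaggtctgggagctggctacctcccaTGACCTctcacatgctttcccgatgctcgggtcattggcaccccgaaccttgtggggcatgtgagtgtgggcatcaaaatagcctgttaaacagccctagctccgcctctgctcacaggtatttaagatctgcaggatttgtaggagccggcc
Slc25a22 upstream: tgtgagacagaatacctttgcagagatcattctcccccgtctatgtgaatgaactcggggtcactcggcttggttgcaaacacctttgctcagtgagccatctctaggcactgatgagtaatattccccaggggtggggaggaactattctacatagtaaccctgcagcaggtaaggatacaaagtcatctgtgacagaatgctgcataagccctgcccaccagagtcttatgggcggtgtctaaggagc
Slc25a13 E-box: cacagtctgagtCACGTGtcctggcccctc

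These 250-base windows were searched on both strands for CACGTG (E-box), CACGTT (E-prime box), TTATGNAA (D-box) and AGGTCA, none of which contains another. The AGGTCA match of Slc25a47 lies 153 to 148 bases before its annotated start. The E-box of Slc25a13 lies 125 to 120 bases before its annotated start. Both matches are inside the longest RefSeq span of their gene. The Slc25a22 window held none of the 4 motifs. Over the 46 windows of the 36 carriers with an entry, 17.4% held CACGTG against 6.02% of all 32851 windows. These were in Slc25a1, Slc25a13, Slc25a14, Slc25a15, Slc25a31, Slc25a33 and Slc25a36. Only Slc25a13 of these carriers was called rhythmic in WT or TB with all arrays. CACGTT was in 6.52% of carrier windows and 3.85% of all, TTATGNAA in 2.17% and 3.07%, and AGGTCA in 8.7% and 14%. Several windows can belong to 1 gene and overlap, and a match describes the letters only. Slc25a51 and Slc25a32 had no entry.

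Slc25a47, a liver carrier of unsettled substrate that was first described as a mitochondrial carrier reduced in hepatocellular carcinoma, had the largest fitted amplitude of the 46 in each genotype. Its 3 WT arrays read 9.45, 9.91 and 9.71 log2 at ZT 0, then 10.20, 9.94 and 10.65 at ZT 4, 11.04, 10.69 and 11.46 at ZT 8, 10.50, 11.46 and 10.35 at ZT 12, 10.21, 10.32 and 10.26 at ZT 16, then 9.98, 9.47 and 8.66 at ZT 20. The 3 TB arrays read 9.60, 9.54 and 8.86 at ZT 0, 10.37, 10.48 and 10.85 at ZT 4, 11.03, 10.23 and 11.19 at ZT 8, 11, 10.98 and 10.87 at ZT 12, 9.26, 10.65 and 9.55 at ZT 16, then 9.69, 9.34 and 9.68 at ZT 20. In both genotypes every array at ZT 8 and ZT 12 lay above every array at ZT 0 and ZT 20, and at no ZT did the WT and TB arrays separate. The amplitude was 0.81 ± 0.13 (SE) in WT with a peak at ZT 9.51 ± 0.62 (limma adjusted p = 2.30e-04) and 0.85 ± 0.13 in TB with a peak at ZT 9.15 ± 0.59 (adjusted p = 1.56e-04). The amplitude differed by 0.039 between TB and WT (95% interval -0.34 to 0.41).

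Slc25a22, a carrier that imports glutamate with a proton, was rhythmic in both genotypes and peaked earlier. WT arrays read 9.00, 8.85 and 8.33 log2 at ZT 0, 8.76, 8.96 and 8.75 at ZT 4, 9.34, 9.32 and 9.62 at ZT 8, 8.52, 8.92 and 8.52 at ZT 12, 8.38, 8.58 and 7.94 at ZT 16, then 8.13, 8.00 and 8.88 at ZT 20. TB arrays read 8.65, 8.19 and 8.44 at ZT 0, 8.83, 8.78 and 8.60 at ZT 4, 8.81, 8.88 and 8.65 at ZT 8, 8.88, 8.63 and 8.63 at ZT 12, 7.85, 8.27 and 8.47 at ZT 16, then 8.32, 8.08 and 8.02 at ZT 20. The WT arrays stood highest at ZT 8, where all 3 lay above all TB arrays, while the TB means were nearly level from ZT 4 to ZT 12. The fitted amplitude was 0.47 ± 0.085 in WT (peak ZT 6.58 ± 0.69, limma adjusted p = 9.75e-04) and 0.36 ± 0.085 in TB (peak ZT 7.22 ± 0.90, adjusted p = 0.0211), a difference of -0.11 (95% interval -0.35 to 0.13). The TB call held in 35 of 36 fits that left out 1 array. Of these fits, 18 left out a WT array, which leaves the TB amplitude at 0.36, so they test the call little. Without TB ZT 20 replicate 3 the amplitude was 0.34 and the limma adjusted p 0.0584.

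Slc25a51, which brings NAD+ into the matrix, was called rhythmic in TB liver and not in WT liver. TB arrays read 7.85, 7.57 and 7.50 log2 at ZT 0, 7.55, 7.60 and 7.74 at ZT 4, 8.42, 7.81 and 8.37 at ZT 8, 8.55, 8.24 and 8.75 at ZT 12, 7.91, 8.25 and 8.14 at ZT 16, then 7.78, 7.49 and 7.71 at ZT 20. WT arrays read 7.83, 8.20 and 7.30 at ZT 0, 7.39, 7.83 and 7.94 at ZT 4, 7.75, 7.99 and 7.37 at ZT 8, 8.43, 8.14 and 8.03 at ZT 12, 7.70, 8.07 and 7.82 at ZT 16, then 7.68, 7.35 and 8.01 at ZT 20. In TB all arrays at ZT 12 and ZT 16 stood above all at ZT 0, ZT 4 and ZT 20, while the WT arrays at those 3 times spread from 7.30 to 8.20 and overlapped the arrays of ZT 12. The amplitude was 0.46 ± 0.085 in TB (peak ZT 11.83 ± 0.71, limma adjusted p = 0.00184) and 0.17 in WT (peak ZT 12.77, adjusted p = 0.514). The test of the difference in rhythm itself did not pass: its p was the smallest of the 46 carriers, 0.0628, and its limma adjusted p over all genes was 0.985. The amplitude was higher in TB by 0.29 with a 95% interval of 0.042 to 0.53 that is not adjusted for the 46 carriers. This interval is approximate, since an amplitude cannot fall below 0 and that of WT was small. It does not replace the test of the difference in rhythm.

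Both carriers of the malate-aspartate shuttle in liver were called in WT. Slc25a13, citrin, which exports aspartate in exchange for glutamate and also feeds the urea cycle, had an amplitude of 0.21 ± 0.046 (peak ZT 12.28, limma adjusted p = 0.00882). Its WT arrays were at 9.86, 9.72 and 10.05 log2 at ZT 0 and at 10.25, 10.38 and 10.24 at ZT 16, so that these groups did not overlap. Slc25a11, the oxoglutarate-malate carrier, had an amplitude of 0.30 ± 0.058 (peak ZT 11.79, limma adjusted p = 0.00282). Its WT arrays were at 8.65, 8.59 and 8.85 at ZT 0 and at 8.97, 9.23 and 9.85 at ZT 12; the highest of these is the array with the high muscle markers. Without that array the amplitude was 0.22 and the limma adjusted p 0.0131, and for Slc25a13 the values were 0.24 and 0.00297. In TB the amplitudes were 0.16 for Slc25a13 (limma adjusted p = 0.0852) and 0.11 for Slc25a11 (adjusted p = 0.565), and the differences in rhythm between genotypes had adjusted p-values of 0.994 and 0.985.

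Slc25a32, which carries folate and FAD into the matrix, had an amplitude of 0.34 ± 0.073 in WT (peak ZT 12.11, limma adjusted p = 0.00698) and of 0.26 ± 0.073 in TB (peak ZT 11.04, adjusted p = 0.0689). WT arrays were at 6.91, 6.92 and 7.22 log2 at ZT 0, at 7.61, 7.51 and 7.58 at ZT 8, and at 7.22, 8.08 and 7.81 at ZT 12. The arrays of ZT 8 lay above those of ZT 0, while the lowest of ZT 12 overlapped them. TB arrays were at 7.22, 6.97 and 7.21 at ZT 0 and at 7.71, 7.53 and 8.00 at ZT 12, without overlap. Slc25a17, the carrier of CoA, FAD and NAD+ in the peroxisomal membrane, had its TB peak at ZT 22.02 with an amplitude of 0.32 and a limma adjusted p of 0.0502. Leaving out any of 4 arrays in turn brought that p under the threshold, the lowest being 4.77e-04 without TB ZT 0 replicate 1 (amplitude 0.42). Among the 4 was WT ZT 20 replicate 3, which leaves the TB amplitude at 0.32. The highest was 0.149 without TB ZT 0 replicate 3 (amplitude 0.28). With a 6-level time factor in place of the cosine, 2 carriers were called in WT (Slc25a47 and Slc25a22, beside 2.69% of all genes) and 2 in TB (Slc25a47 and Slc25a51, beside 2.17%).

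**Figure D2:**
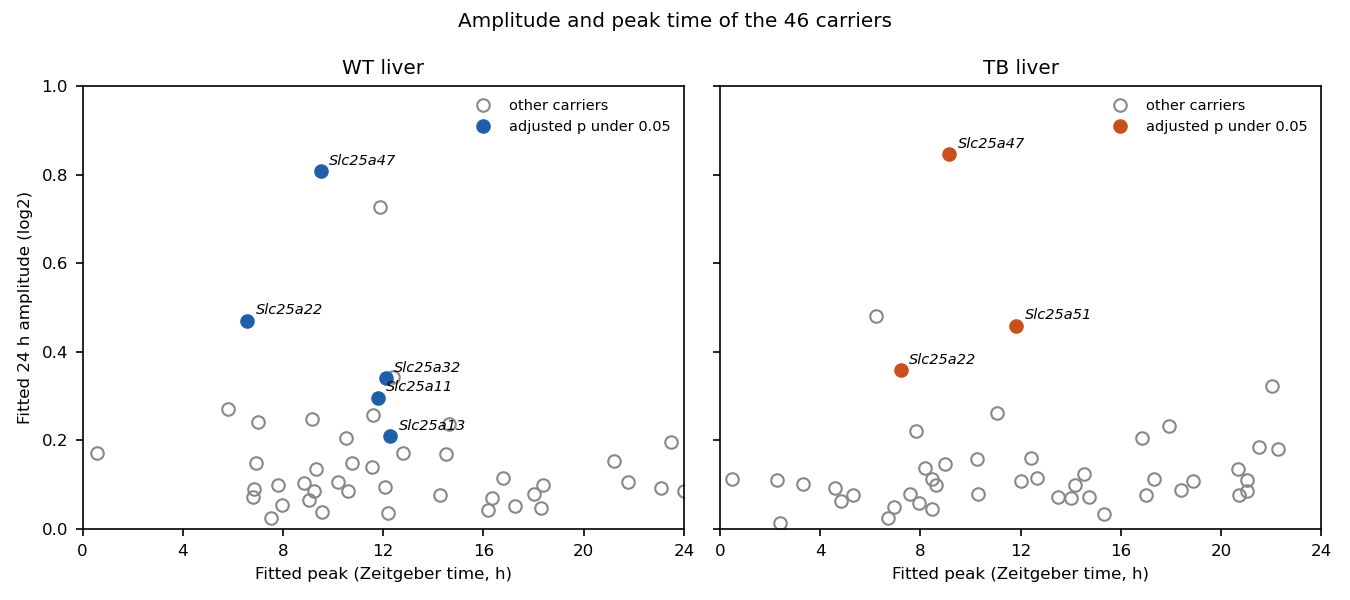
Fitted 24 h amplitude (log2) against fitted peak (Zeitgeber time, h) of each of the 46 carriers, WT liver on the left and TB liver on the right. Filled points are the carriers with a limma adjusted p under 0.05 (5 in WT, 3 in TB); the open WT point at an amplitude of 0.73 is Slc25a4, described with the array of high muscle markers.

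No carrier was called for a difference in rhythm between TB and WT, and neither was any other gene (0% of all genes; 1065 genes and 0 carriers had an unadjusted p under 0.05 in limma). That no difference was called does not show the rhythms to be equal. A rhythm shared by both genotypes was also fitted, a choice made after the data were seen. It called 11 carriers (23.9%), beside 12.3% of all genes. Besides the 6 above these were Slc25a37, the mitoferrin that brings iron in for haem synthesis (amplitude 0.21, peak ZT 16.26), Slc25a17 (0.25, ZT 22.57), the dicarboxylate carrier Slc25a10 (0.21, ZT 11.09), the ADP/ATP carrier Slc25a5 (0.11, ZT 19.71) and Slc25a40, a glutathione importer (0.14, ZT 9.14). Of the 11, 8 peaked between ZT 6 and ZT 13, among them the 6 above. The share of all called genes that peaked in this window was not counted. Without WT ZT 12 replicate 3 the shared rhythm called 12 carriers, beside 12.2% of all genes; the additional one, Slc25a35, of unsettled substrate, was chosen for mention after its value was seen.

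The calls are given by role as counts, beside the 6.45% of all genes called in WT and 4.95% in TB (unadjusted, 16.8% in each). Of 8 carriers of adenine nucleotides and phosphate, 0 were called in either genotype; their unadjusted p was under 0.05 for 0 in WT and 1 in TB. Of 4 carriers of di- and tricarboxylates, 1 was called in WT and 0 in TB (unadjusted, 2 and 0). Of 12 carriers of amino acids and carnitine, 2 were called in WT and 1 in TB. Of 12 carriers of cofactors, nucleotides, glutathione and metals, 1 was called in each, and of 10 uncoupling-protein-like, outer membrane or unassigned carriers, 1 in each.

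Several carriers central to liver metabolism did not pass the rhythm test. The citrate carrier Slc25a1, which supplies cytosolic acetyl-CoA, had amplitudes of 0.066 in WT and 0.015 in TB (limma adjusted p = 0.804 and 0.991). The phosphate carrier Slc25a3 had 0.043 and 0.076 (adjusted p = 0.952 and 0.818). The ornithine carrier Slc25a15 of the urea cycle had 0.17 and 0.086 (limma adjusted p = 0.132 and 0.680), and the carnitine-acylcarnitine carrier Slc25a20 had 0.17 and 0.10 (0.364 and 0.742). Slc25a25, an ATP-Mg/phosphate carrier, had 0.24 and 0.22 (limma adjusted p = 0.456 and 0.513), and the CoA carrier Slc25a42 had 0.15 and 0.11 (0.604 and 0.754).

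Between the genotypes, no carrier passed the test. Over the 6 ZT, 0 of 46 carriers were called in limma, beside 0.176% of all genes (39 genes; 0.0586% called lower and 0.117% called higher in TB), and 5 carriers had an unadjusted p under 0.05 (10.9%), beside 11% of all genes. Of the 46 differences, 28 were negative (lower in TB), or 60.9%, with a median of -0.056 log2; of all genes 46.1% were negative, with a median of 0.0073. When each array was centred on its median, 31 carriers (median -0.081) and 59.0% of all genes were negative, and after quantile normalization 28 carriers (median -0.021) and 50.98% of all genes. For 45 of the 46 carriers the 95% interval of the difference lay within 0.5 log2 of 0, and the median reach of the intervals to each side of the estimate was 0.14.

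**Figure D3:**
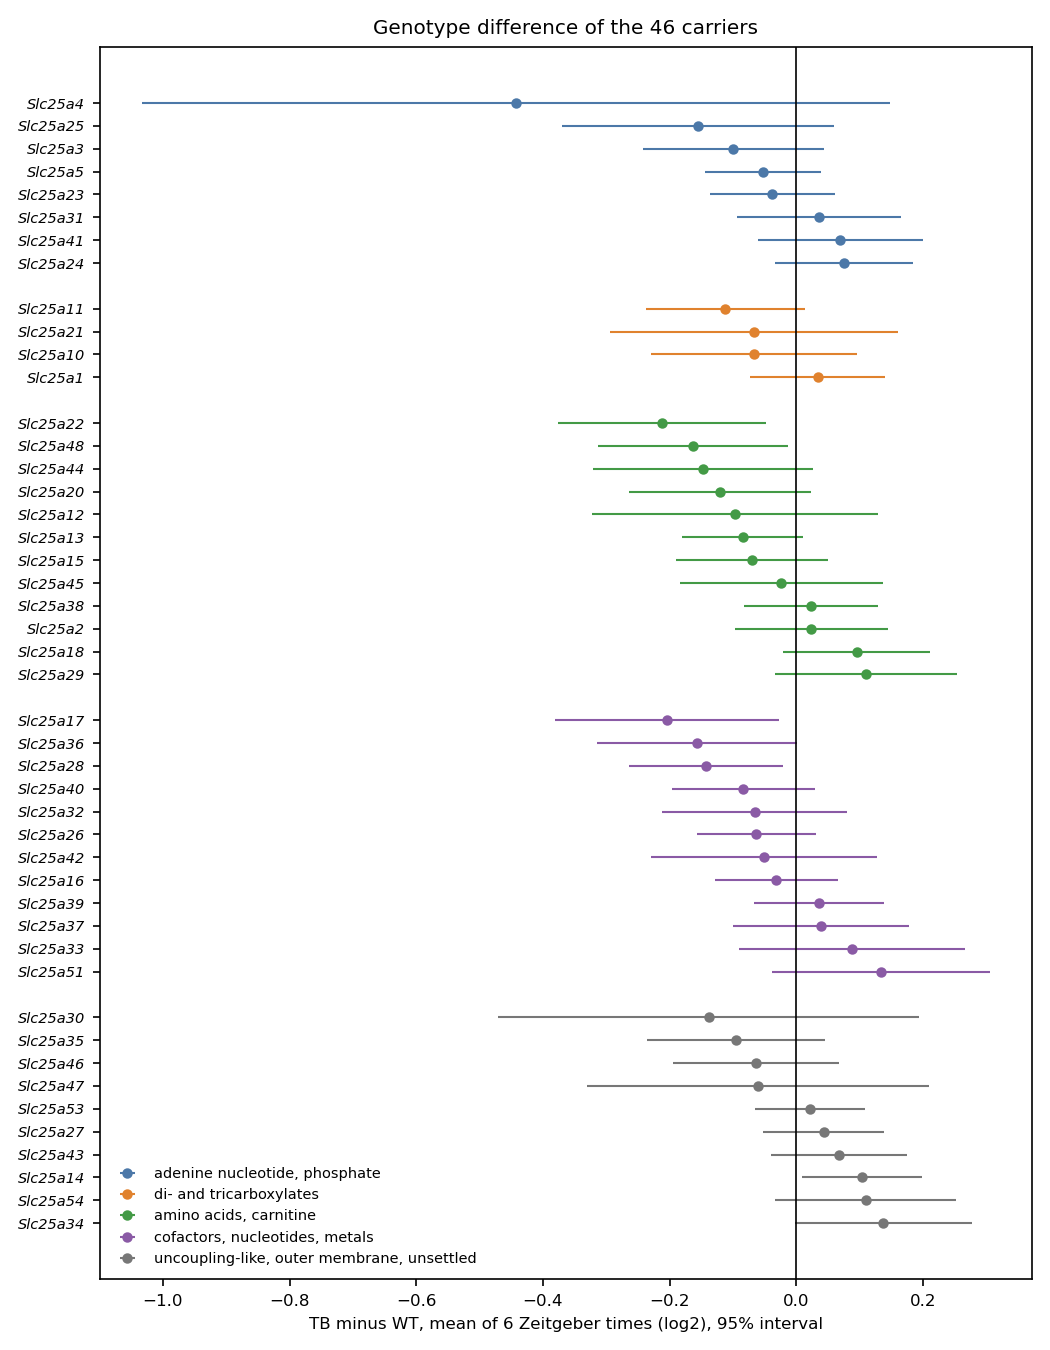
Difference TB minus WT in log2(intensity + 16), averaged over 6 Zeitgeber times, for the 46 carriers grouped by role; points are estimates and bars 95% intervals from limma (18 arrays per genotype). Estimates run from -0.44 (Slc25a4, with the widest interval) to 0.14 (Slc25a34), and none had an adjusted p under 0.05.

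The 5 with the smallest p were Slc25a22, Slc25a28, Slc25a17, Slc25a14 and Slc25a48. Slc25a22 differed by -0.21 ± 0.081 (SE; limma adjusted p = 0.302). Slc25a28, the second mitoferrin, differed by -0.14 ± 0.060 (limma adjusted p = 0.347), and Slc25a17 by -0.20 ± 0.086 (0.351). Slc25a48, reported as a choline carrier, differed by -0.16 ± 0.074 (limma adjusted p = 0.396). Slc25a14, related to the uncoupling proteins, was the only one of these 5 with a higher mean in TB, by 0.10 ± 0.046 (0.385). Group means were lower in TB at all 6 ZT for Slc25a35 and the pyrimidine nucleotide carrier Slc25a36. They were higher at all 6 for Slc25a18, Slc25a34, Slc25a43 and Slc25a54. None of these carriers passed the test, and all of them had a mean intensity under 64. The share of all genes with the same sign at all 6 ZT was not counted. Without the WT array of high muscle markers the ZT 12 difference of Slc25a36 was -0.080.

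By role, the difference was negative for 5 of 8 carriers of adenine nucleotides and phosphate (median -0.045), 3 of 4 of di- and tricarboxylates (-0.067), 8 of 12 of amino acids and carnitine (-0.078), 8 of 12 of cofactors, nucleotides, glutathione and metals (-0.057), and 4 of 10 of the remaining group (0.033). Among the always described carriers, Slc25a1 differed by 0.034 (95% interval -0.073 to 0.14), Slc25a3 by -0.099 (-0.24 to 0.044), Slc25a10 by -0.067 (-0.23 to 0.096) and Slc25a15 by -0.070 (-0.19 to 0.050). Slc25a20 differed by -0.12 (95% interval -0.26 to 0.023), Slc25a13 by -0.085 (-0.18 to 0.011), Slc25a25 by -0.15 (-0.37 to 0.059) and Slc25a42 by -0.051 (-0.23 to 0.13). For Slc25a5 the value was -0.052 (95% interval -0.14 to 0.040); Slc25a5 and Slc25a4 are close copies, and how far their probe sets share signal was not tested. All of these intervals contained 0. Leaving out 1 array moved some of these uncalled values by over 1.5 times, to 0.0061 for Slc25a1 and -0.10 for Slc25a10 without WT ZT 12 replicate 3, to -0.030 for Slc25a10, -0.015 for Slc25a42 and -0.033 for Slc25a5 without WT ZT 12 replicate 2, to -0.096 for Slc25a42 without WT ZT 8 replicate 2, to 0.058 for Slc25a1 without WT ZT 12 replicate 2 and to -0.044 for Slc25a15 without WT ZT 20 replicate 3.

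At single times the groups of 3 were compared by their own limma contrasts, and no carrier was called at any ZT. The share of all genes called was 0.00451% (1 gene) at ZT 8 and 0% at the other times. Unadjusted, p was under 0.05 for 8.7, 0, 4.35, 8.7, 4.35 and 0% of the carriers, in the order of the times from ZT 0, beside 4.74, 3.26, 5.3, 7.41, 5.38 and 1.81% of all genes. The 3 TB arrays lay wholly below the 3 WT arrays in 21 of the 276 pairs of carrier and ZT and wholly above in 4, together 9.06%, beside 9.36% over all genes. By direction these are 7.61% below and 1.45% above, beside 4.26% and 5.11% over all genes. The test of a genotype difference that changes with ZT called 0 genes (550 unadjusted) and 0 carriers (0 unadjusted). Its smallest p among carriers belonged to Slc25a12 (0.0711, limma adjusted p = 1), followed by Slc25a41, Slc25a44, Slc25a2 and Slc25a51. The F statistic of Slc25a12 in this test depended on single arrays. With 1 array left out it was lowest without WT ZT 12 replicate 3, the array with the high muscle markers (0.95). It was highest without WT ZT 12 replicate 2 (4.13).

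The smallest p at ZT 8 belonged to Slc25a22, the glutamate carrier, with arrays at 9.34, 9.32 and 9.62 in WT and at 8.81, 8.88 and 8.65 in TB. The groups did not overlap and differed by -0.64 ± 0.20 (limma adjusted p = 0.727). At ZT 0 it belonged to Slc25a44, a carrier of branched-chain amino acids, at 8.82, 8.94 and 8.34 in WT and 8.03, 8.18 and 8.10 in TB, again without overlap (-0.60 ± 0.21, limma adjusted p = 0.964). At ZT 16 it belonged to Slc25a32, at 7.83, 7.41 and 7.44 in WT and 7.27, 7.21 and 7.01 in TB, without overlap (-0.40 ± 0.18, limma adjusted p = 0.897). Slc25a48 had the smallest p at ZT 4 as well as at ZT 20, with differences of -0.33 (limma adjusted p = 1.00) and -0.29 (adjusted p = 1.00), neither called; the second was -0.16 without TB ZT 20 replicate 2 and -0.45 without TB ZT 20 replicate 1. At ZT 12 it belonged to Slc25a12.

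The ZT 12 values turned on 1 array. Slc25a12, aralar, the aspartate-glutamate carrier of muscle and brain, stood at 8.05, 7.71 and 9.38 log2 in WT and at 7.67, 7.43 and 7.27 in TB, a difference of -0.92 (limma adjusted p = 0.477). The value of 9.38 is that of WT ZT 12 replicate 3, and without this array the difference was -0.42 (adjusted p = 0.594). Slc25a4, the ADP/ATP carrier that prevails in heart and skeletal muscle, was at 6.26, 6.51 and 11.89 in WT and at 6.26, 6.31 and 6.41 in TB. The ZT 12 difference of Slc25a4 was -1.90 with all arrays and -0.061 without WT ZT 12 replicate 3. Its median over the 35 other arrays was 6.33, and the highest of them, WT ZT 16 replicate 2, was at 7.35.

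**Figure D4:**
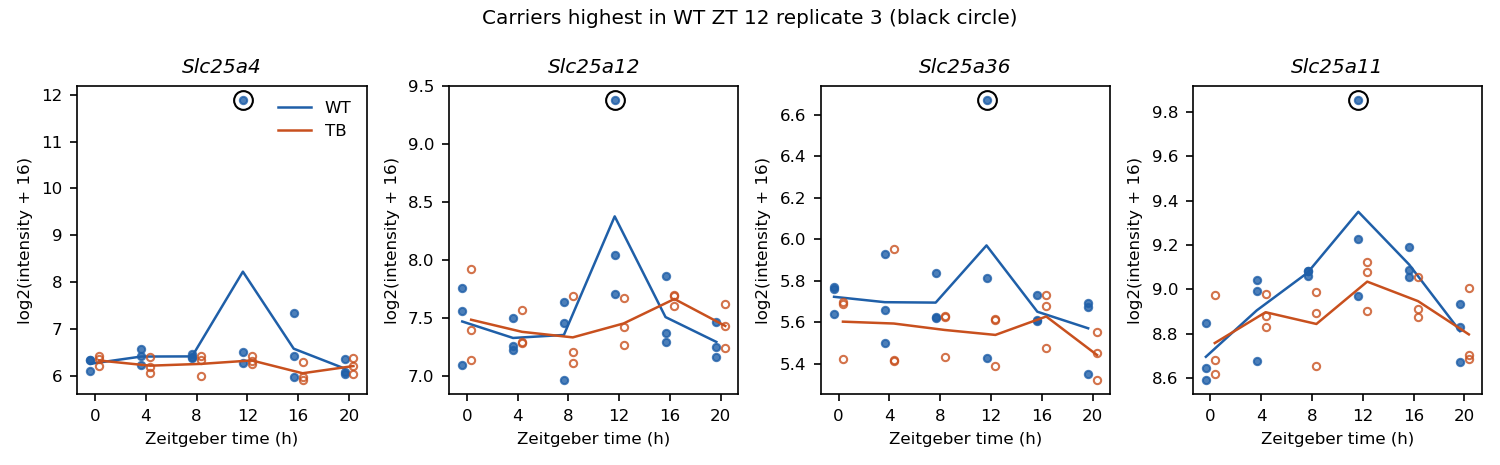
Log2(intensity + 16) of 4 carriers against Zeitgeber time in h, single arrays as points (WT filled, TB open) and group means as lines. The circled array, WT ZT 12 replicate 3, is the highest of 36 for each, from 11.89 against a median of 6.33 for Slc25a4 to 9.85 against 8.93 for Slc25a11.

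Altogether 6 of 46 carriers (13%) had their highest value of the 36 arrays in WT ZT 12 replicate 3, beside 8.02% of all genes. They were Slc25a4, Slc25a12, Slc25a36, Slc25a11, Slc25a27 and Slc25a34, at 5.57, 1.95, 1.05, 0.92, 0.46 and 0.29 log2 above the median of the other arrays. In the same array Ttn, the spring protein of the sarcomere, was at 16.77 against a median of 5.45, and Ckm, muscle creatine kinase, at 16.74 against 6.18. Without it the genotype difference over the 6 ZT went from -0.44 to -0.14 for Slc25a4, from -0.097 to -0.013 for Slc25a12 and from -0.11 to -0.070 for Slc25a11. The median over the 46 carriers was then -0.057, with 29 negative. The WT amplitude of Slc25a4 went from 0.73 to 0.13 and that of Slc25a12 from 0.34 to 0.15, neither of them called with or without the array.

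The genotype difference was also taken within each of the sets of 24 and 12 arrays. In the larger set alone 2 carriers were called, both lower in TB (4.35% of 46, beside 3.7% of all genes called lower and 5.19% called in all). Slc25a17 differed by -0.32 (limma adjusted p = 0.0300) and Slc25a48 by -0.20 (adjusted p = 0.0494). In the smaller set alone Slc25a17 differed by 0.037 and Slc25a48 by -0.092 (limma adjusted p = 0.932 and 0.795). For Slc25a17 the TB arrays of the smaller set read 9.66, 9.30, 9.32, 8.88, 9.21 and 9.29 log2 from ZT 0 to ZT 20, the highest of their group at every ZT but ZT 20. Of the 46 differences, 30 were negative in the larger set (median -0.065) and 20 in the smaller (0.017). Whether the genotype difference of a carrier differs between the sets was not tested.

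The rhythms of the carriers were described within each set by their amplitudes. Slc25a47 had 0.94 in WT and 0.84 in TB within the larger set and 0.55 and 0.86 within the smaller, with peaks between ZT 9.14 and ZT 9.57. Slc25a22 had 0.45 and 0.30 in the larger set and 0.54 and 0.52 in the smaller, and Slc25a51 in TB had 0.43 and 0.53. Within the larger set 7 carriers were called in WT (beside 6.57% of all genes) and 5 in TB (beside 4.25%), with Slc25a22 in TB no longer among them (limma adjusted p = 0.213); within the smaller set, 1 array per group, 0 were called. With the set as a block in the fit of all arrays, 8 carriers were called in WT (beside 9.03% of all genes) and 7 in TB (beside 7.48%), and 0 for genotype (beside 0.681%). Those added in TB were Slc25a32, Slc25a17, Slc25a13 and Slc25a37, and in WT Slc25a15, Slc25a37 and Slc25a10.

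Relatives and partners of the carriers were also counted. Of 5 relatives under other symbols, 4 were measured (Ucp1, Ucp3, Mtch1 and Mtch2), and 0 were called in any comparison (unadjusted, 0 for genotype and for rhythm in WT and TB). Of all genes, 11% had an unadjusted p under 0.05 for genotype and 16.8% for rhythm in each genotype. Of 16 measured transporters of other families, 3 were called rhythmic in WT and 2 in TB, beside 6.45% and 4.95% of all genes. Slc8b1, the mitochondrial sodium-calcium exchanger, had amplitudes of 0.65 in WT (peak ZT 7.08, limma adjusted p = 2.66e-04) and 0.56 in TB (adjusted p = 0.00259). Mcu, the pore of the calcium uniporter, had 0.41 (peak ZT 2.84, limma adjusted p = 0.00576) and 0.52 (3.51e-04). Vdac1, the outer membrane channel, had 0.20 in WT (peak ZT 13, limma adjusted p = 0.0227) and 0.080 in TB; without WT ZT 12 replicate 3 the WT amplitude was 0.13 and it was not called (0.0672), which left 2 calls in WT. For genotype 0 of 16 were called (3 unadjusted), beside 0.176% of all genes (11% unadjusted). Of the 16, 13 were negative, with a median of -0.047, beside 46.15% of all genes with a median of 0.0073. Vdac1 had the smallest p (-0.19 ± 0.049, limma adjusted p = 0.121).

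Of 29 measured enzymes that make or use the carried metabolites, 6 were called rhythmic in WT, with or without WT ZT 12 replicate 3, and 7 in TB. Of all genes, 6.45% were called in WT (6.21% without that array) and 4.95% in TB. Cpt1a, which forms the acylcarnitines that Slc25a20 takes up, had amplitudes of 0.66 (peak ZT 11.47, limma adjusted p = 1.51e-06) and 0.65 (peak ZT 10.40, 2.51e-06), while Slc25a20 itself was not called. Alas1, the first enzyme of haem synthesis, had 0.99 in WT (limma adjusted p = 0.00127) and 0.94 in TB (0.00283). Pck1, of gluconeogenesis, had 0.67 (limma adjusted p = 0.00336) and 0.82 (3.59e-04), and Pank1, of CoA synthesis, had 0.31 in WT (0.00112). Acly, which splits the citrate exported by Slc25a1, was called in TB (0.61, limma adjusted p = 0.00146) and had an amplitude of 0.15 in WT. For genotype 0 of 29 were called (7 unadjusted), beside 0.176% of all genes (11% unadjusted). Acly had the smallest p (-0.38 ± 0.092, limma adjusted p = 0.0878). For scale, 16 of 17 measured core clock genes were called in WT and 14 in TB, with Dbp at amplitudes of 2.34 and 2.25.

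Markers of other cell types varied among the arrays as follows. Mean log2 levels of 8 macrophage markers ran from 6.80 to 8.21 in WT arrays and from 7.16 to 8.13 in TB arrays. Over the 6 ZT, 7 of the 8 had a higher mean in TB, while 46.15% of all genes had a lower one. For genotype 0 of the 8 were called (1 unadjusted), beside 0.176% of all genes (11% unadjusted). The sign changed with time: 8 were higher in TB at ZT 16, and 7 were lower at ZT 20. Of 7 endothelial markers, 4 were called rhythmic in WT and 0 in TB, beside 6.45% and 4.95% of all genes. The test of a difference in rhythm called 0 of the 7 (1 unadjusted), beside 0% of all genes (4.8% unadjusted). Of 7 neutrophil markers, 1 was called higher in TB (beside 0.117% of all genes), and the mean log2 level of the list stayed between 5.33 and 5.85. In WT ZT 12 replicate 3, the array with the high muscle markers, the mean of 7 stellate cell markers was 8.53 against at most 7.83 elsewhere. Only 3 of the 7 were highest there, so that this mean does not stand for the whole list. At ZT 12 the differences TB minus WT of the 7 ran from -1.63 to 0.0040, with a median of -0.21. The mean of 5 adipocyte markers was 6.50 in that array against at most 6.39, with 1 of the 5 highest there. That of 4 cholangiocyte markers was 6.16 against at most 6.43, with 1 of the 4 highest there. The 7 lung epithelium markers had mean levels of 5.65 to 5.97 in all arrays. The part of these cells in the carrier values was not tested.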

How the data were processed

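The authors deposited 1 linear intensity per probe set and array, 41345 probe sets on 36 arrays. Per the labels' protocols, frozen liver was extracted with Trizol, cleaned on RNeasy columns and labelled with biotin by terminal transferase. They made the values with PLIER 2.0 and Affymetrix Expression Console 1.1.1, per the submitters' processing notes; the tools' settings and any normalization stand in none of the sources used here. Medians of the arrays were 36.3 to 43.3, and the number of arrays limits the precision. Probe sets with 1 annotated symbol (23521) were named through RefSeq by Entrez identifier (99.2% matched), and the brightest per gene was kept. Groups came from sample titles. Values were tested as log2(intensity + 16) with limma 3.58.1 (R 4.3.3), checked on simulated data: 12 group means for genotype, and a mean with 24 h cosine and sine terms per genotype for rhythm, Benjamini-Hochberg adjusted over 22180 genes.

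The members, lists, designs and settings were chosen with earlier results of these data known. Named were carriers past the threshold, otherwise those with the 5 smallest p (1 at each ZT), 15 carriers central to liver metabolism, and up to 4 genes per other list. The alternatives were the pseudocount, normalization, low-value filter, mean of probe sets, replicate block, array weights, variance trend, array sets, restricted fits, a time factor and each array left out. A further part of the TB genotype is not reported here.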

Additional observations from a re-analysis of the deposited data

How the results depend on the processing

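Carriers called for genotype numbered 0 in every setting tried except the larger array set alone (2). For rhythm in WT (5), array weights gave 8, the array set as a block 8, the smaller set alone 0, that set without WT ZT 12 replicate 3 also 0, a 6-level time factor 2 and the shared rhythm 11; leaving out 1 array at a time gave 5 to 6. For rhythm in TB (3), quantile normalization gave 6, a filter on the third of genes with the lowest mean 5, array weights 8, the set as a block 7, the larger set 5, the smaller 0, the shared rhythm 11 and leaving out 1 array 2 to 5, the 5 without TB ZT 8 replicate 2. With the 6-level factor, Slc25a11, Slc25a32 and Slc25a13 were not called in WT (limma adjusted p = 0.0710, 0.0904 and 0.105) nor Slc25a22 in TB (0.148). Of the 46 genotype differences, 4 had the other sign in the larger set, 18 in the smaller and 15 in the smaller without WT ZT 12 replicate 3. Among the named carriers these were, none being called, Slc25a47 in the larger set (0.052), Slc25a28 (0.0014), Slc25a17 (0.037), Slc25a20 (0.040) and Slc25a42 (0.19) in the smaller set, and in that set without WT ZT 12 replicate 3 the same carriers (0.029, 0.060, 0.012 and 0.14) and Slc25a12 (0.18). The cause was not tested. Over all genes, genotype calls (39) ran from 0 (smaller set) and 15 (pseudocount 1) to 151 (set block), 627 (array weights) and 1152 (larger set), and from 11 to 109 with 1 array left out. Rhythm calls in WT (1431) and TB (1099) were 596 and 482 with the time factor, 16 and 19 in the smaller set, 2735 for the shared rhythm, and in TB 1994 with array weights and 1660 with the set block. Rhythm calls over all genes with 1 array left out ran from 1114 to 1543 in WT and from 759 to 1501 in TB. Those under quantile normalization and the filter on low means are not given here. With the replicate number as a block, 0 carriers were called for genotype, 5 in WT and 3 in TB. The main fit did not take the numbers as pairs. Of the 18 same-numbered WT and TB pairs of a ZT, 14 correlated over 0.1 in deviations from group means (-0.052 to 0.41). Such pairs may share variation that the main fit leaves out. At every ZT, WT and TB gave 1 array each to the smaller set, and both carried the same replicate number. A replicate block within each ZT, added after the data were seen, called 0 carriers for genotype and 59 genes in all, beside 39 in the main fit.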
